A study of Polypterus senegalus with 8 samples.

Results

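The let-7 family of the bichir, Polypterus senegalus, was followed through regrowth of the pectoral fin. All rows of the deposited miRNA table whose identifier begins pse-let-7 were taken as members, which gave 9 of 153 listed miRNAs: let-7a, let-7b, let-7c, let-7d, let-7e, let-7f, let-7g, let-7h and let-7j. Small RNA was sequenced from uninjured fins (0 days post amputation, dpa) and from fins collected 3, 7 and 14 days after they were cut with scalpels under anesthesia. Each of these 4 stages was 1 library made from pooled tissues of fish from an aquarium shop, and the series holds 8 libraries in all, the other 4 being mRNA. No strain, age or genotype is given in the labels, and neither a drug nor a transgene was used to make the groups. Because each stage has a single library, no difference below has a replicate check, and no test between stages was made. All intervals are at the 95% level and reflect the number of reads alone, without biological or library-preparation variation.

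let-7 miRNAs are small RNAs, first described in the worm Caenorhabditis elegans, that accumulate as cells mature and that hold down growth-promoting genes in many animals. Like every miRNA they pair with target mRNAs mainly through the seed, a short stretch near the 5′ end, so family members with one seed can reach overlapping sets of targets. Vertebrate genomes carry many let-7 genes, and their making is restrained in immature mammalian cells by the RNA-binding protein Lin28. In a regenerating fin the blastema, a mass of proliferating cells under the wound skin, rebuilds the lost part.

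The mature sequences, taken from the study's list of 154 bichir miRNAs, are printed because the members differ by so few bases that their identity carries every result below. They are written 5′ to 3′ as DNA letters, with the seed (bases 2 to 8) in capitals.
let-7a: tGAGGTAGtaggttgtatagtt
let-7b: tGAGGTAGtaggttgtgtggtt
let-7c: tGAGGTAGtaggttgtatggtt
let-7d: tGAGGTAGttggttgtatagtt
let-7e: tGAGGTAGtagattgaatagtt
let-7f: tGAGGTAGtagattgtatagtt
let-7g: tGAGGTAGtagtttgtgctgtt
let-7h: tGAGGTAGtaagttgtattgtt
let-7j: tGAGGTAGttgtttgtacagtt

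All 9 members were 22 bases long and had the seed GAGGTAG, and no other miRNA of the 154 had it. The first 9 bases were the same in every member, and 15 of the 22 positions did not vary. Counted from 1 at the 5′ end, with the base of let-7a first, let-7c differed from let-7a by A19G, let-7d by A10T and let-7f by G12A. let-7b differed by A17G and A19G, let-7e by G12A and T16A, and let-7h by G11A and A19T. let-7j (A10T, G12T and T18C) and let-7g (G12T, A17G, T18C and A19T) lay farthest from let-7a. Of the 36 pairs of members, 5 differed by a single base: let-7a with let-7c, let-7d and let-7f, let-7b with let-7c, and let-7e with let-7f. How reads with a sequencing error at such a base were assigned is not given in the sources used here.

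The depth of the libraries bears on each value. The 0, 3, 7 and 14 dpa libraries held 6083774, 3353354, 196763 and 6858045 miRNA reads. Levels are given as CPM, the reads of a miRNA per 1000000 miRNA reads of its library, and a single read at 7 dpa was worth 5.08 CPM. No member was listed at 0 in any library, and the lowest value was 84 reads, of let-7c at 7 dpa. All 9 members exceeded a mean of 10 CPM over the 4 libraries, as did 142 of the 153 miRNAs.

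As a whole the family took a smaller share of miRNA reads in every regenerating library than in the uninjured fin. The uninjured fin gave 8.57% of its miRNA reads to let-7 (Wilson interval 8.55% to 8.60%). The 3, 7 and 14 dpa libraries gave 2.76% (2.75% to 2.78%), 4.25% (4.16% to 4.34%) and 3.77% (3.75% to 3.78%). On the log2(CPM + 1) scale the family sum changed from 0 dpa by -1.63 (-1.64 to -1.62), -1.01 (-1.04 to -0.98) and -1.19 (-1.19 to -1.18) at 3, 7 and 14 dpa. These shares are relative to a total in which miR-21, the most abundant miRNA after amputation, rose from 14.5% of reads at 0 dpa to 60.3%, 52.7% and 62.5% at 3, 7 and 14 dpa. When miR-21 was removed from the totals the family held 10.0327%, 6.97%, 8.98% and 10.0405% of the remaining reads at 0, 3, 7 and 14 dpa. The size of the fall therefore depended on scaling at 3, 7 and 14 dpa, and at 14 dpa so did whether there was a fall. Against totals without miR-21 the family sum changed by -0.53, -0.16 and 0.0011 at 3, 7 and 14 dpa. At 14 dpa the family sum under library totals was 0.24 above the median miRNA, which itself changed by -1.43. At 3 and 7 dpa the family sum lay below the median miRNA, at -0.28 and -1.22 relative to it. In tissue RNA, fewer cells of a type and less RNA per cell cannot be told apart.

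The make-up of the family, which no scaling of libraries can move, changed most at 7 dpa. let-7e, let-7f, let-7a and let-7d were the 4 leading members at 0, 3 and 14 dpa and together made up 93.8%, 96.3% and 95.2% of let-7 reads there. At 7 dpa the 4 leading members were let-7h, let-7a, let-7f and let-7d, with 70.04%. The share of let-7 reads that would have to move between members to turn the make-up of one library into that of another was 4.61% for the 3 and 14 dpa libraries, 14.9% for 0 with 3 dpa and 16.4% for 0 with 14 dpa. For 7 dpa set against the 0, 3 and 14 dpa libraries it was 45.4%, 42.3% and 43.5%. An effective number of members, the inverse of the summed squared shares, was 4.14, 4.03 and 4.15 at 0, 3 and 14 dpa and 6.23 at 7 dpa. Reads were thus spread over more members in the 7 dpa library.

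**Figure D1:**
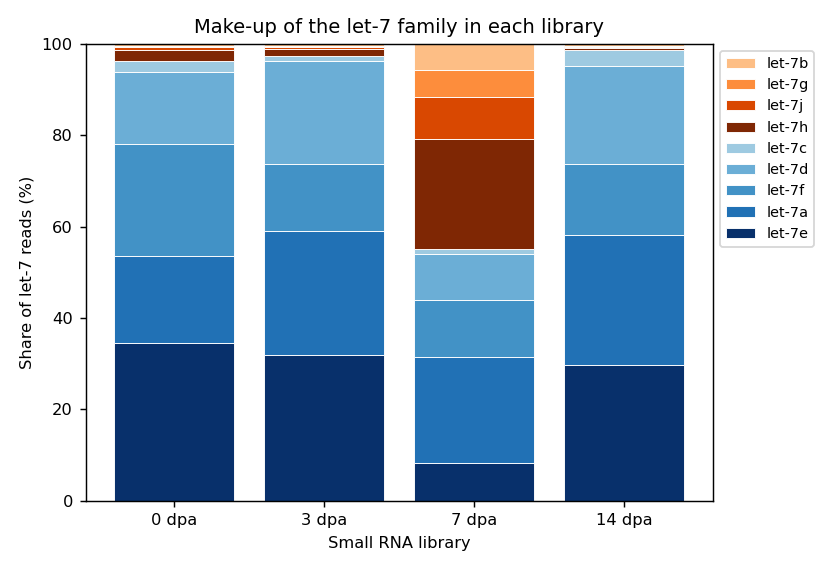
Share of let-7 reads held by each member in the 4 small RNA libraries, 1 bar per library, in percent of the let-7 reads of that library. The orange members (let-7h, let-7j, let-7g, let-7b) held 3.75%, 2.59% and 1.39% at 0, 3 and 14 dpa and 44.9% at 7 dpa. They were picked for being higher at 7 dpa than at 0 dpa, so their larger share at 7 than at 0 dpa follows from that choice.

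The members are described below in order of their direction at 7 dpa, a split made from the values themselves and therefore given as a description. At 7 dpa against 0 dpa, 5 members were more than 1.5-fold lower (0.58 on the log2 scale) and 4 were more than 1.5-fold higher. Over the 142 miRNAs past the filter, 38.0% were lower and 38.7% higher by the same rule. The median change of the 9 members was -0.72, against 0.21 over the 142 miRNAs.

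let-7e was the most abundant member in 3 of the 4 libraries. It stood at 29627, 8824, 3476 and 11161 CPM at 0, 3, 7 and 14 dpa. Under library totals its highest level was in the uninjured fin. That depended on scaling, since a median of ratios gave a change of 0.14 at 14 dpa. Its lowest level was at 7 dpa, where it fell from first to sixth place in the family. The log2 change at 7 dpa was -3.09 (-3.20 to -2.98), which placed it 17th from the lowest of 142 miRNAs. Its share of let-7 reads was 34.6%, 31.9%, 8.18% and 29.6% in the same order of libraries.

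let-7f, 1 base from let-7e, was second at 0 dpa. Its level was 20942 CPM before injury and 4050, 5316 and 5832 CPM at 3, 7 and 14 dpa. Under library totals it was high in the uninjured library alone and nearly level in the regenerating ones. The log2 changes from 0 dpa were -2.37 (-2.40 to -2.34), -1.98 (-2.07 to -1.89) and -1.84 (-1.86 to -1.83). The level course depended on scaling, since a trimmed mean of log ratios gave -1.12, -2.29 and -0.68 at 3, 7 and 14 dpa. Its share of let-7 reads went from 24.4% at 0 dpa to 14.7%, 12.5% and 15.5% at 3, 7 and 14 dpa.

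let-7a changed least at 7 dpa of the members that were lower there. It measured 16371, 7498, 9931 and 10766 CPM at 0, 3, 7 and 14 dpa, high before injury and lowest at 3 dpa. Its log2 changes were -1.13 (-1.15 to -1.11), -0.72 (-0.79 to -0.66) and -0.60 (-0.62 to -0.59). These falls depended on scaling, since against totals without miR-21 let-7a changed by 0.13 at 7 dpa and 0.58 at 14 dpa. Within the family it gained ground, from 19.1% of let-7 reads at 0 dpa to 27.1%, 23.4% and 28.6% at 3, 7 and 14 dpa.

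let-7d, which carries A10T relative to let-7a, followed let-7a at 0, 3 and 14 dpa but not at 7 dpa. Its levels were 13487, 6232, 4269 and 8136 CPM at 0, 3, 7 and 14 dpa. The 7 dpa library was the lowest. The log2 changes were -1.11 (-1.14 to -1.09), -1.66 (-1.76 to -1.56) and -0.73 (-0.74 to -0.71). The falls at 3 and 14 dpa depended on scaling, since the trimmed mean gave 0.14 and 0.43 there. For each read of let-7d there were 1.21, 1.20 and 1.32 reads of let-7a at 0, 3 and 14 dpa, and 2.33 at 7 dpa (2.14 to 2.53).

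let-7c was the least abundant of the 5 members that were lower at 7 dpa. It had 12783, 1058, 84 and 8693 reads at 0, 3, 7 and 14 dpa, or 2101, 315.5, 427 and 1268 CPM. Under library totals both early regenerating libraries were low and 14 dpa was intermediate. The log2 changes were -2.73 (-2.82 to -2.64), -2.30 (-2.62 to -1.99) and -0.73 (-0.77 to -0.69), and the interval at 7 dpa is wide because of the 84 reads. The fall at 14 dpa depended on scaling, since against totals without miR-21 let-7c changed by 0.46 there.

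**Figure D2:**
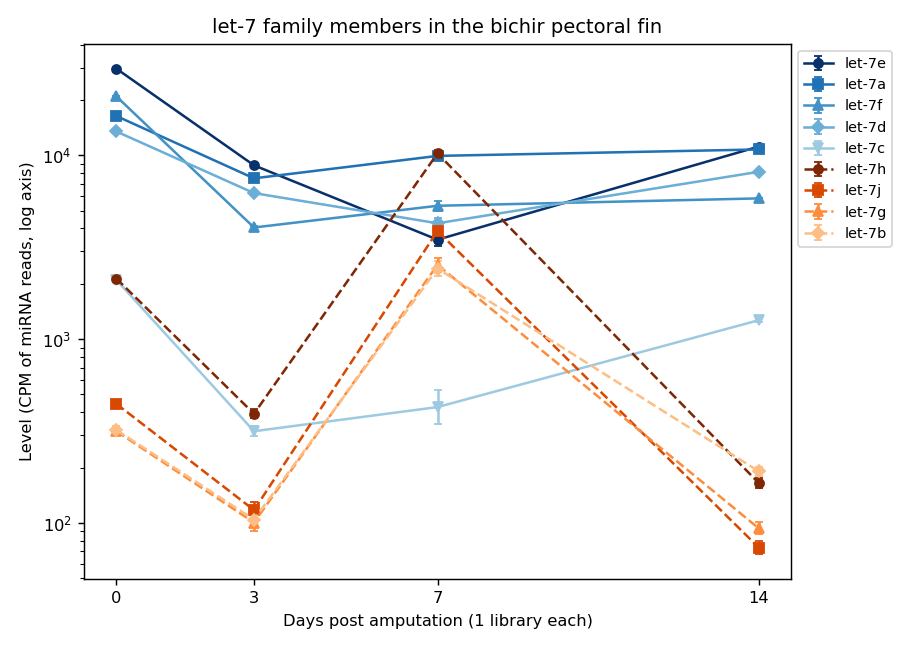
Level of each let-7 member in CPM of miRNA reads (log axis) against days post amputation, with 95% Wilson intervals for counting error and 1 library per time point. Solid blue lines are the 5 members lower at 7 dpa than at 0 dpa, and dashed orange lines the 4 that were higher, of which let-7h stood at 2136 CPM before injury and 10246 CPM at 7 dpa.

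let-7h showed the widest swing of the family. It measured 2136, 393, 10246 and 165 CPM at 0, 3, 7 and 14 dpa. The 7 dpa library stood above the uninjured fin and the 3 and 14 dpa libraries stood below it. The log2 change was 2.26 (2.19 to 2.33) at 7 dpa, between -2.44 (-2.52 to -2.36) at 3 dpa and -3.69 (-3.78 to -3.60) at 14 dpa. At 7 dpa let-7h was the leading member, with 24.1% of let-7 reads, whereas the 0, 3 and 14 dpa libraries gave it 2.49%, 1.42% and 0.438%. Among the 153 miRNAs it ranked 45th, 65th, 10th and 75th by abundance at 0, 3, 7 and 14 dpa.

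let-7j had the largest rise of the family at 7 dpa. Its reads numbered 2705, 394, 762 and 504 at 0, 3, 7 and 14 dpa, or 445, 117, 3873 and 73.5 CPM. Again only the 7 dpa library stood above the uninjured fin. The log2 change was 3.12 at 7 dpa (3.00 to 3.24), 16th from the highest of 142 miRNAs, against -1.91 at 3 dpa and -2.58 at 14 dpa.

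let-7g and let-7b were nearly equal in read number in 3 libraries. let-7g had 1920, 337, 499 and 641 reads at 0, 3, 7 and 14 dpa, or 316, 100.5, 2536 and 93.5 CPM. let-7b had 1951, 350, 476 and 1309 reads, or 321, 104, 2419 and 191 CPM. Both peaked at 7 dpa, by 3.00 (2.86 to 3.15) for let-7g and 2.91 (2.76 to 3.06) for let-7b on the log2 scale. For each read of let-7b there were 0.984 (0.924 to 1.05), 0.963 (0.827 to 1.12) and 1.05 (0.923 to 1.19) reads of let-7g at 0, 3 and 7 dpa. These 3 intervals include equality, and at 14 dpa the ratio was 0.490 (0.445 to 0.539).

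Ratios of reads within a library compare members without any scaling. For each read of let-7e there were 0.0721, 0.0445 and 0.0148 reads of let-7h at 0, 3 and 14 dpa, and 2.95 (2.70 to 3.22) at 7 dpa. The order of these members was thus reversed at 7 dpa. let-7b and let-7c, which differ by 1 base, also changed order, with 0.153 (0.145 to 0.160), 0.331 (0.292 to 0.374) and 0.151 (0.142 to 0.160) reads of let-7b for each read of let-7c at 0, 3 and 14 dpa and 5.67 (4.49 to 7.23) at 7 dpa. In both cases a member picked as higher at 7 dpa was set over a member picked as lower. A rise of these ratios from 0 to 7 dpa was therefore fixed by the split, and the values are a description. The other 4 pairs that differ by 1 base were lower together at 7 dpa. let-7a and let-7f, another such pair, kept one ratio through regeneration, at 1.85 (1.81 to 1.89), 1.87 (1.73 to 2.02) and 1.85 (1.82 to 1.87) at 3, 7 and 14 dpa, after 0.782 at 0 dpa (0.775 to 0.788).

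**Figure D3:**
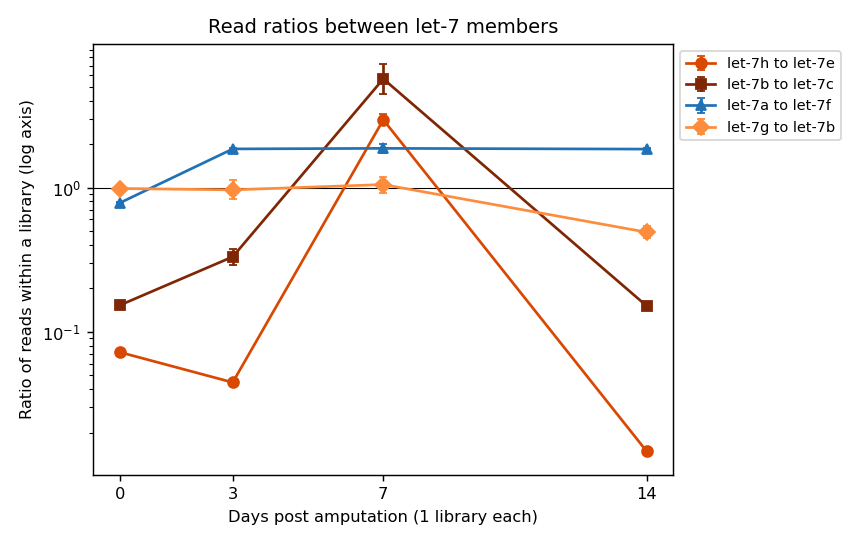
Ratio of reads between pairs of let-7 members within each library (log axis) against days post amputation, with 95% Clopper-Pearson intervals for counting error. The let-7h to let-7e and let-7b to let-7c ratios exceeded 1 at 7 dpa, at 2.95 and 5.67, and were below 1 in the other 3 libraries.

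No varying base was both shared by the 4 members that were higher at 7 dpa and absent from the lower ones. Some bases were seen in higher members only: G11A in let-7h, A17G in let-7b and let-7g, and G12T and T18C in let-7g and let-7j. Others were seen in lower members only: G12A in let-7e and let-7f, and T16A in let-7e. G11A and T16A were each carried by a single member and so could not be in both groups. Each of the other bases just named was carried by a pair of members. The groups were made from the 7 dpa values, so this is a description, and no link of a base to direction was tested. At position 19 let-7b carried the same base as let-7c, which was lower, and let-7g and let-7h shared A19T, which no lower member had. At position 10 let-7j and let-7d shared A10T. The 4 higher members differed from each other by 3 to 5 bases, and the 5 lower members by at most 3. The number of G and C bases was 7 to 10 in the higher members and 7 to 9 in the lower ones.

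At 3 dpa and at 14 dpa all 9 members were more than 1.5-fold lower than at 0 dpa under library totals, where 66.2% and 67.6% of the 142 miRNAs were. None was higher, where 18.3% and 14.1% of the 142 were. The members ranged from -2.73 to -1.11 at 3 dpa around a median of -1.75, and from -3.69 to -0.60 at 14 dpa around a median of -1.41. The medians over all 142 miRNAs were -1.35 and -1.43. With libraries scaled by a trimmed mean of log ratios, 4 members were lower and 0 higher at both times, beside 39.4% of miRNAs lower and 37.3% higher at 3 dpa, and 45.8% lower and 31.7% higher at 14 dpa. The 4 were let-7f, let-7h, let-7c and let-7j at 3 dpa, and let-7f, let-7h, let-7j and let-7g at 14 dpa. let-7f, let-7h and let-7j were therefore lower at both times under both scalings. The split at 7 dpa was the same under the trimmed mean, with 5 lower and 4 higher, beside 40.1% and 34.5% of all miRNAs.

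**Figure D4:**
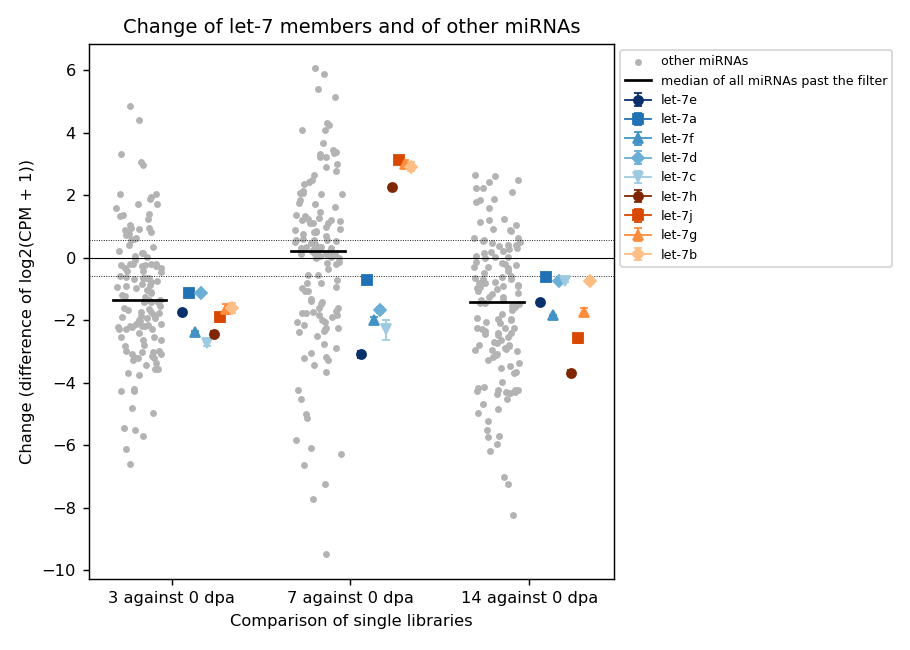
Change from 0 dpa as a difference of log2(CPM + 1) for the let-7 members (coloured, with 95% counting intervals) and other miRNAs averaging 10 CPM or more (grey), in 3 comparisons that share the 0 dpa library; dotted lines mark 1.5-fold. The 9 members spanned -2.73 to -1.11, -3.09 to 3.12 and -3.69 to -0.60 in the 3, 7 and 14 dpa comparisons.

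Between successive regenerating libraries the 4 members picked as higher at 7 dpa rose and then fell. Both steps use the 7 dpa library from which that split was made. The directions of the steps are therefore partly fixed by the split and are given as a description. From 3 to 7 dpa let-7j was higher by 5.03 (4.85 to 5.21), let-7h by 4.70, let-7g by 4.64 (4.44 to 4.85) and let-7b by 4.52 (4.32 to 4.72). These changes ranked 5th, 8th, 10th and 11th from the highest of 142 miRNAs, of which 57.7% were higher. From 7 to 14 dpa they were lower by -5.70, -5.95, -4.75 and -3.66 in the same order, beside 60.6% of all miRNAs lower. The other members moved less between 3 and 7 dpa, from -1.34 for let-7e to 0.44 for let-7c under library totals, and let-7e was the 1 member lower by over 1.5-fold, beside 26.1% of miRNAs. From 7 to 14 dpa let-7e was higher by 1.68, let-7c by 1.57 and let-7d by 0.93, where 27.5% of miRNAs were higher, and let-7a and let-7f changed by 0.12 and 0.13. Under the trimmed mean 4 members were higher and 5 lower from 3 to 7 dpa, beside 36.6% and 47.9% of miRNAs. From 7 to 14 dpa the same 4 were lower and the other 5 higher, beside 47.2% and 42.3%.

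**Figure D5:**
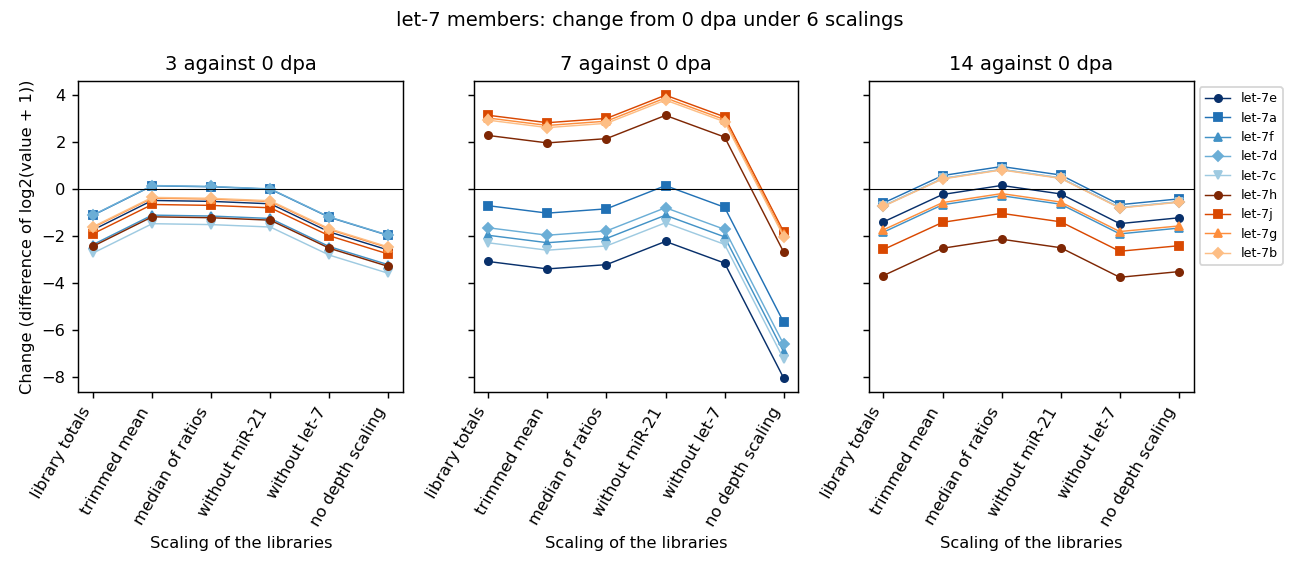
Change of each let-7 member from 0 dpa under 6 scalings of the libraries, 1 panel per comparison, as a difference of log2(value + 1), where value is CPM or, with no depth scaling, reads. A scaling moves all members of a library almost alike, so their order is not tested by it. At 7 dpa let-7h, let-7j, let-7g and let-7b lay above 0 under all scalings shown but the values without depth scaling.

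Markers of other tissues and the depth also differed between the libraries, and their part in the result was not tested. A list of 5 muscle miRNAs (miR-1b, miR-133a, miR-206, miR-208 and miR-499) summed to 24.8% of miRNA reads at 0 dpa and to 0.864%, 0.265% and 2.24% at 3, 7 and 14 dpa, with all 5 lower at each stage, beside 66.2%, 38.0% and 67.6% of all miRNAs, and 0 of them at 0 reads. A list of 5 white blood cell miRNAs (miR-142a, miR-146a, miR-150, miR-155 and miR-223) summed to 2.62%, 3.96%, 6.11% and 1.52% of reads at 0, 3, 7 and 14 dpa. Under library totals all 5 were more than 1.5-fold higher at 7 dpa, beside 38.7% of all miRNAs, with miR-146a barely past the threshold at 0.59. At 14 dpa, under library totals, 4 were lower, beside 67.6%, as were let-7h, let-7j, let-7g and let-7b. For let-7b this depended on scaling, since the trimmed mean gave 0.41 at 14 dpa. These marker counts were not made under other scalings. At 3 dpa, where these 4 let-7 members were lower, 3 of the white blood cell miRNAs were higher and 1 was lower, beside 18.3% and 66.2% of all miRNAs. Both red blood cell miRNAs, miR-144 and miR-451, summed to 0.0278%, 0.708%, 0.152% and 0.0804% at 0, 3, 7 and 14 dpa. They went opposite ways at 7 dpa, where miR-451 changed by 3.36 and miR-144 by -0.94. The miR-144 value rests on 14 reads at 7 dpa. The 7 dpa library was also the shallowest, with the 14 dpa library 34.9 times as deep.

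The miRNAs whose profile over the 4 libraries was most like that of a member were found by the root mean square difference of log2(CPM + 1) values, each centred on its own mean, among 111 other miRNAs averaging 100 CPM or more. The family sum was nearest to miR-455 (0.19), miR-16b (0.21) and miR-20a (0.48). let-7h was nearest to miR-150 (0.37), which measured 1441, 296, 9092 and 72.9 CPM at 0, 3, 7 and 14 dpa. let-7j was nearest to miR-365 (0.32), let-7b to miR-130b (0.22) and let-7g to miR-19c (0.35), each with its highest level at 7 dpa. They were picked for likeness to members that peaked at 7 dpa, so the shared peak follows from that choice. miR-19c measured 86.0, 44.7, 589.5 and 26.1 CPM at 0, 3, 7 and 14 dpa. It reached a mean of 100 CPM only through the 7 dpa library. let-7d was nearest to miR-100 (0.17), let-7a to miR-455 (0.26), let-7c to miR-148 (0.36), let-7f to miR-140 (0.40) and let-7e to miR-30d (0.41). With 4 libraries such likeness is a description only.

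Genes that make or degrade let-7, and known let-7 targets of other animals, were looked up by name in the study's tables of common changes. Transcripts paired with them there were then measured in the mRNA libraries of the same 4 stages. Of 34 such genes, 6 were paired with transcripts in those tables, which gave 10 transcripts, and 8 of these exceeded a mean of 1 CPM. Genes not named in those tables, among them lin28a, lin28b and hmga2, were not examined, so nothing is said of their levels. Of the 8, the dicer1 transcript and khsrp comp24991_c0_seq1 stood at 0.41 and 0.82 CPM at 0 dpa. They passed the filter only through the regenerating libraries, where they were high. Their count as higher is therefore partly fixed by the filter. The tables were read in shortened form and list transcripts for having risen or fallen at 7 dpa, partly in these libraries. The directions at 7 dpa are therefore not independent of that choice. Nor are those at 3 and 14 dpa, which are measured from the same 0 dpa library. Of the 8, 6, 7 and 7 were more than 1.5-fold higher at 3, 7 and 14 dpa and 0 were lower, where 65.0%, 61.6% and 65.9% of all 43321 transcripts past the filter were higher and 12.8%, 10.8% and 11.2% lower. With trimmed-mean scaling 4 were higher at each stage, namely the transcripts of dicer1, igf2bp3 and igf1ra and khsrp comp24991_c0_seq1, beside 37.0%, 31.3% and 36.2% of all transcripts. The mycb transcript was then lower at 3 and 14 dpa, beside 25.5% and 25.3%, and none was lower at 7 dpa, beside 21.2%.

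Among the genes that make let-7, dicer1 encodes the enzyme that cuts the hairpin precursor into the mature miRNA. Its transcript comp55360_c1_seq4 had 16, 1247, 521 and 1268 reads at 0, 3, 7 and 14 dpa. It was low in the uninjured library alone, with log2 changes of 4.58, 3.21 (2.95 to 3.42) and 4.59. The changes were 3.48, 2.35 and 3.46 with trimmed-mean scaling, and 3.66, 2.49 and 3.82 when all transcripts of its assembly component were summed. The product of khsrp promotes the processing of let-7 precursors in mammals. Of its 3 transcripts, comp60391_c0_seq1 was the most abundant, with 801, 1930, 1959 and 2149 reads, and it changed by 1.27, 1.10 (0.99 to 1.22) and 1.41. These changes were close to those of the median transcript, 1.05, 0.84 and 1.06, and the trimmed mean gave 0.15, 0.17 and 0.25. The less abundant comp24991_c0_seq1 had 32, 415, 542 and 531 reads at 0, 3, 7 and 14 dpa. It changed by 2.71, 2.89 and 3.03, and by 1.70, 2.03 and 1.96 under the trimmed mean. For comp24991_c0_seq2 the changes were 1.43, 1.26 and 1.42, and 0.33, 0.35 and 0.28 under the trimmed mean. Summed over the assembly component of these last transcripts, the changes were 1.77, 1.70 and 1.85.

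Among the target genes, igf2bp3 encodes an RNA-binding protein that stabilises growth-related mRNAs. Its transcript comp48704_c0_seq1 had 40, 349, 204 and 463 reads at 0, 3, 7 and 14 dpa, lowest in the uninjured fin, and changed by 2.33, 1.496 (1.20 to 1.77) and 2.69. The insulin-like growth factor receptor gene igf1ra had the transcript comp40992_c0_seq1 with 221, 3354, 2393 and 2688 reads, and changes of 3.74, 3.08 (2.91 to 3.25) and 3.42. Both were high in all 3 regenerating libraries. The trimmed mean gave 1.34, 0.76 and 1.63 for the igf2bp3 transcript, and 2.61, 2.14 and 2.25 for that of igf1ra. Its other transcripts, comp39865_c0_seq1 and comp39865_c0_seq2, were listed at 0 at 0 dpa, which on a log2 scale can mean no read or 1 read, and had 8 and 15 reads at 7 dpa. For the growth regulator genes mycn and mycb, comp14958_c0_seq1 had 627, 917, 1446 and 1092 reads and comp56633_c0_seq2 had 448, 415, 650 and 478, both highest at 7 dpa. They lay nearer to the median transcript, with changes of 1.01 (0.88 to 1.14) and 0.36 (0.20 to 0.52) at 7 dpa. Their values with trimmed-mean scaling were 0.091 and -0.52. Summed over its assembly component, mycb was higher by 1.60, 1.20 and 1.74 at 3, 7 and 14 dpa, against -0.07, 0.36 and 0.11 for the single transcript. The study lists the mycn transcript as rising and the mycb transcript as falling.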

How the data were processed

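Small RNA of the 4 stages was sequenced by the authors on a Genome Analyzer IIx. Adapter removal, trimming and collapsing of identical reads were done by the authors with the FASTX Toolkit, and tags of 20 to 25 bases were annotated with miRMiner against miRBase version 21. mRNA reads were trimmed with Trimmomatic, assembled with Trinity and counted with RSEM. The deposited tables hold log2 values named log CPM. Powers of 2 of the nonzero values were whole within 0.01% for 100% of values, so the deposited log2 values were read as unscaled read counts. A listed 0 was read as no read, although log2 of 1 read is also 0. Of 132496 mRNA rows, 4760 exact repeats were dropped, and the mRNA libraries held 38095865 to 43350285 reads.

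Each library's reads were expressed as CPM of its own total. A change is the difference between a pair of log2(CPM + 1) values, a scale that understates changes of low transcripts, with the exact Clopper-Pearson interval of the pair of counts carried to it. Shares carry Wilson intervals. With 1 library per group no test was run. Alternatives were other scalings, pseudocounts of 0.1 and 5 CPM, no filter or a mean of at least 100 CPM, a 2-fold threshold, whole intervals past the threshold, and, for mRNA, transcripts summed per assembly component. Trimming removed 30% of ratios and 5% of abundances at each end.

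All let-7 rows, miR-21, the nearest miRNAs (3 for the family sum, 1 for each member) and the pathway transcripts were named by rule. The members and lists were chosen with earlier results of these data known, and the marker lists, distances of make-up and read ratios, and the count of miRNAs with one course over the stages, were added after the values were seen. None of the study's supplementary values were used, only sequences, transcript names and the listing of transcripts as rising or falling. No genome of the bichir was used, so positions are not given. Calculations used Python 3.11.15, numpy 2.4.6, scipy 1.17.1, pandas 2.3.3 and matplotlib 3.10.9.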

Additional observations from a re-analysis of the deposited data

Results flagged for a closer look

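Of the 9 members, 4 moved past 1.5-fold in one direction at 7 dpa and in the other at 3 and 14 dpa under library totals, and their counting intervals lay wholly past it. The same course, above 0 dpa at 7 dpa and below it at both other times, was taken by 27 of the 142 miRNAs past the filter (19%), 23 of them outside the family, so it was not particular to let-7. With 1 library per stage the difference between time points was not tested. let-7h changed from 0 dpa by -2.44 at 3 dpa, 2.26 at 7 dpa and -3.69 at 14 dpa. let-7j changed by -1.91, 3.12 and -2.58. let-7b changed by -1.61, 2.91 and -0.75, and let-7g by -1.64, 3.00 and -1.74. With trimmed-mean scaling let-7h (-1.19, 1.95 and -2.53) and let-7j (-0.67, 2.80 and -1.43) kept opposite directions past 1.5-fold at all 3 times. let-7g (-0.40, 2.69 and -0.59) kept them at 7 and 14 dpa, and let-7b (-0.37, 2.60 and 0.41) did not. With that scaling 11 of the 142 miRNAs (7.75%) took the full course, 2 of them let-7 members.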

How the results depend on the processing

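No paired analysis was possible because each stage held 1 library. Scaling moved most values. The family sum changed at 3, 7 and 14 dpa by -0.38, -1.33 and -0.022 under the trimmed mean, by -0.42, -1.15 and 0.36 under median of ratios, by -0.53, -0.16 and 0.0011 against totals without miR-21, by -1.72, -1.08 and -1.26 with let-7 left out of the totals, and by -2.49, -5.96 and -1.01 without depth scaling. Members past 1.5-fold lower at 3 dpa numbered 4, 4 and 5 under the trimmed mean, median of ratios and totals without miR-21. At 14 dpa the lower members numbered 4, 2 and 3 under the same scalings, 5 without depth scaling and 5 at 2-fold, and 4 and 1 were higher under median of ratios and without miR-21. Without depth scaling 0 members were higher and 9 lower at 7 dpa. The family share became 10.0327%, 6.97%, 8.98% and 10.0405% at 0, 3, 7 and 14 dpa without miR-21.

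Single members changed sign as follows. At 3 dpa let-7a became 0.12 and let-7d 0.14 under the trimmed mean, and 0.0835 and 0.0963 under median of ratios. At 7 dpa let-7a became 0.13 without miR-21, and without depth scaling let-7h became -2.69, let-7j -1.83, let-7b -2.03 and let-7g -1.94. At 14 dpa let-7a, let-7d, let-7c and let-7b became 0.56, 0.43, 0.43 and 0.41 under the trimmed mean, 0.94, 0.82, 0.82 and 0.80 under median of ratios, and 0.58, 0.46, 0.46 and 0.44 without miR-21. let-7e became 0.14 there under median of ratios. Under the trimmed mean the mycn transcript comp14958_c0_seq1 went from 0.56 to -0.53 at 3 dpa and from 0.79 to -0.34 at 14 dpa, and the mycb transcript comp56633_c0_seq2 from 0.36 to -0.52 at 7 dpa and from 0.11 to -0.95 at 14 dpa. Summed per assembly component, mycb went from -0.07 to 1.60 at 3 dpa. Besides the 22 changes of sign among let-7 members, 74 recomputed member values stayed within the counting interval and 93 moved beyond it with the sign kept. Pseudocounts of 0.1 and 5 CPM moved none of them beyond it, and the whole-interval rule kept each count within 1.5 times. Depth limits let-7c at 7 dpa most. Values without depth scaling also carry the difference in library depth, and the 0 dpa library was 30.9 times as deep as the 7 dpa one. Which scaling lies nearest to the tissue was not tested.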
